A study of Mus musculus with 4 samples.

Results

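The transcripts described here are 111 long noncoding RNAs that the annotation classes as antisense, measured in brains of macroH2A knockout (KO) and wild-type (WT) mouse embryos, together with the protein-coding genes they overlap on the opposite strand. They were chosen by their level: of 19150 genes listed in both deposited tables, 702 had the antisense class and 692 of these lay on an autosome. Of those, 113 had a mean of at least 2 in the deposited normalized values (CPM, the count scaled to the total reads of its library). Among them were 2 of 4 antisense RNAs that were left out by name. The results below therefore hold for the 111 members and not for the whole class. The mean level that chose the members pools both genotypes. It ranged from 2.02 to 63.1 CPM with a median of 4.38, so that 70 of the 111 lay below 5 and 22 reached 10. The members just inside the limit were 2700069I18Rik at 2.10, Gm11772 at 2.05 and Etohd2 at 2.02, and those just outside it were AC131709.1 at 1.99, Gm12925 at 1.98 and Lrp8os2 at 1.97.

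An antisense RNA is transcribed from the DNA strand opposite to that of another gene. Some such RNAs start from the same CpG-rich region as the coding gene and run away from it, others run into its far end or lie within its introns, and individual ones are known to act on chromatin, transcription or the stability of the sense RNA while many have no known role. In the embryonic forebrain several of them accompany homeobox genes, and the best studied is Dlx6os1, also called Evf2, which in mouse acts on the enhancers between Dlx5 and Dlx6.

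RNA came from tissue labelled as brain of C57BL/6 embryos at stage E13.5, with 2 KO libraries (KO2 and KO4) and 2 WT libraries (WT6 and WT8). The labels do not name the deleted gene or the allele, nor do they say whether embryos of a genotype shared a litter. The p-values here set the genotype difference against a spread estimated from these libraries, and whether the embryos are independent is not known. H2afy, which encodes macroH2A1, had 1368 and 1267 reads in KO2 and KO4, against 5538 and 5593 reads in WT6 and WT8, and was the 1 gene of 15708 tested that passed (log2 fold change -2.22, SE 0.10, adjusted p = 0.00167, edgeR's quasi-likelihood test with Benjamini-Hochberg adjustment). Its paralog H2afy2 averaged 198 CPM in KO and 187 CPM in WT. Libraries held between 16470090 and 18136745 reads, and the members took between 0.0877% and 0.0936% of them. Each deposited table pairs embryos of 1 sex: Xist, expressed from the inactive X chromosome, had 6 and 19 reads in the table of KO2 and WT6, and 8105 and 6094 reads in the table of KO4 and WT8. None of 10 neural markers was at 0 in any library. The libraries differed in regional markers, none of which passed the test: 12 ventral forebrain and GABAergic genes summed to 1432 and 1347 CPM in KO2 and KO4, against 863 and 1435 CPM in WT6 and WT8, while 10 dorsal telencephalon genes summed to 2575 and 2713, against 3425 and 2374. In bulk tissue, fewer cells of a type and less RNA per cell cannot be told apart.

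The members lay on all 19 autosomes. The genomic span of a member had a median of 5911 bases, from 497 to 203606, its merged exons a median of 2100 bases, and 22 members had a single block of exons. An overlapping coding gene on the opposite strand was found for 98 members, 88 with 1 such gene and 10 with several, which gave 125 pairs with 125 different coding genes. Where a member had several, the coding gene with the highest mean CPM stands as its partner below. The pairs took 4 shapes. In 38 pairs the 5′ ends overlapped (head to head), in 28 the 3′ ends overlapped (tail to tail), in 28 the antisense RNA lay inside the coding gene, and in 4 the coding gene lay inside the antisense RNA. The head-to-head pairs had starts a median of 820 bases apart, and 22 of the 38 had them within 1000 bases. The exons of 77 members shared bases with exons of an opposite coding gene, and those of 34 shared none. Over all 111 members, these 34 included, the shared part had a median of 7.75% of the antisense exons. It reached 50% in 6 members. Strandedness of the kit and of the counting was not given in the sources used here. Reads from bases that both genes span, introns of the coding gene included, therefore cannot be assigned to a strand.

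RefSeq promoter windows (GRCm38.p6, 250 bases before to 50 after the start) were found for 51 of the 111 members, and 33 of these starts lay within 100 bases of the start in the deposited tables. CpG dinucleotides were at a median of 0.67 of the number expected from base composition in the 51 antisense windows. The median was 0.86 in 78 windows of sense partners and 0.38 over all 32851 windows. The 78 include partners of members that had no window themselves. Some starts in both sets lay far from the deposited one, as for Usp54 (22709 bases) and Zmiz1os1 (54342 bases). A ratio of at least 0.6 was reached by 60.8% of antisense windows, 82.1% of sense windows and 35.8% of all windows. The Sp-factor motif GGGCGG, searched on both strands, was held by 58.8% of antisense windows, 73.1% of sense windows and 35.7% of all windows. For CCAAT these shares were 35.3%, 35.9% and 37.4%, and for the TATA motif TATAAA they were 7.84%, 7.69% and 13.6%, again on both strands. The 4 windows printed here belong to members described below: the members with the smallest p in each direction (D130020L05Rik, lower in KO, and 4833422C13Rik, higher in KO), a member whose ratio to its sense gene separated the genotypes (Atcayos), and an abundant member inside a transcription factor gene (Gm11266). Capitals mark matches to these 3 motifs on either strand. The windows are chr12:101082201-101082500 on the plus strand, chr13:91741823-91742122 on the minus strand, chr10:81194441-81194740 on the plus strand and chr4:82507739-82508038 on the plus strand.
D130020L05Rik: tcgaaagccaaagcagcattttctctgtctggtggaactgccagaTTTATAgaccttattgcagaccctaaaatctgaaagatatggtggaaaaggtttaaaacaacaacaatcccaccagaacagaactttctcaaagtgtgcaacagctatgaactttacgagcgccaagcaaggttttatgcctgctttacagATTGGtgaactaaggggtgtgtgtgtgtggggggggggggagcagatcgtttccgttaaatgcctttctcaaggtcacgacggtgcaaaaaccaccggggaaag
4833422C13Rik: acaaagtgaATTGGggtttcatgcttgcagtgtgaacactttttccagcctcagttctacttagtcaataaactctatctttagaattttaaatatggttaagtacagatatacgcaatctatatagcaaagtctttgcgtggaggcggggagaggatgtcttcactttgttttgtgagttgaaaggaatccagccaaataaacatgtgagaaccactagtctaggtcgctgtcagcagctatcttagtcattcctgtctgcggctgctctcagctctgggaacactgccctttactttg
Atcayos: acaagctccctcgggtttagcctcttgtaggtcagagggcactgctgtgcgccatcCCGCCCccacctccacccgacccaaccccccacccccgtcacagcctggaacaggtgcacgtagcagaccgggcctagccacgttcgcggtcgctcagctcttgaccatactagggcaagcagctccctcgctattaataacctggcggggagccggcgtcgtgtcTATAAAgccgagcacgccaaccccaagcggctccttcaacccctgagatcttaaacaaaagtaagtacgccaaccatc
Gm11266: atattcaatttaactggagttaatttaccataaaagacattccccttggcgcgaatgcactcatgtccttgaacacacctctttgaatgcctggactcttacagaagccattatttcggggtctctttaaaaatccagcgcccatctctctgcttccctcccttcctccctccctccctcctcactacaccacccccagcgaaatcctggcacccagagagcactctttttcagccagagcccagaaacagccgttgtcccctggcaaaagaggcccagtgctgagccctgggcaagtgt
The Atcayos window had a TATAAA match beginning 28 bases before the RefSeq start and a CpG ratio of 0.77. That start lies 82 bases downstream of the start in the deposited tables, so the match is not upstream of the latter. The D130020L05Rik window had its CCAAT match 54 bases and its TATAAA match 205 bases before the start, both as the reverse complement, and a CpG ratio of 0.51. The 4833422C13Rik window had a reverse CCAAT match 241 bases before the start and a CpG ratio of 0.38, and the Gm11266 window held none of the 3 motifs at a ratio of 0.34.

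Per kilobase of exon, most antisense RNAs were below the gene they overlap. The antisense level divided by the sense level had a median of 0.225 over the 98 pairs, with quartiles of 0.0861 and 0.967. Per kilobase of gene span, introns included, the median was 0.586. The antisense RNA was the higher member of 22 pairs, the coding gene was the higher member of 76, and in 29 pairs the antisense RNA was under 0.1 of the coding gene's level. The highest ratio was 74.7, for Gm28370 at 3.30 CPM per kb beside 0.0441 for Gm20498. Gm20498 averaged 0.143 CPM, so this ratio rests on few reads of the coding gene. The lowest ratio was 0.00593, for A230083G16Rik at 4.59 CPM per kb beside 774 for Ptms, which encodes the small acidic protein parathymosin. The median ratio was 0.353 for antisense RNAs inside the coding gene, 0.195 for head-to-head pairs and 0.182 for tail-to-tail pairs. Spearman's rho between antisense and sense levels was 0.14 across the 98 pairs. It is given as a description, because all pairs share the same 4 libraries and the antisense level chose the members. No level limit applied to the coding genes, so rho and these ratios hold only for antisense RNAs above the limit.

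**Figure D1:**
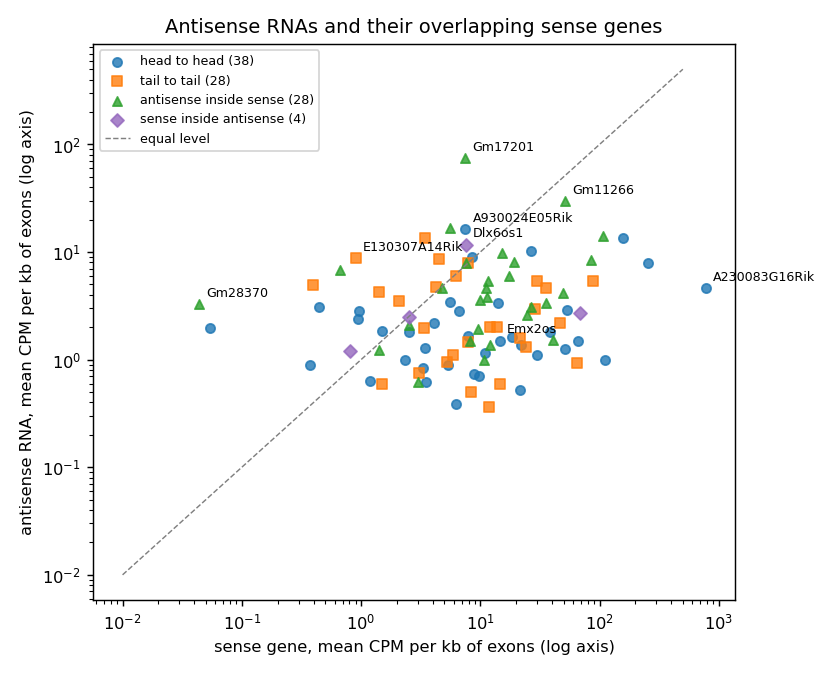
Mean CPM per kilobase of exons of each antisense RNA (vertical, log axis) against its sense partner (horizontal, log axis), 1 point for each of 98 pairs and 1 marker for each shape of pair. The dashed line marks equal levels, and 76 points lie to the right of it, where the coding gene is higher.

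The 8 most abundant members differed widely in their setting. E130307A14Rik (ENSMUSG00000087177) had 1055 and 1216 reads in KO2 and KO4, against 1225 and 913 in WT6 and WT8, and averaged 62.0 ± 6.23 CPM in KO and 64.2 ± 9.93 CPM in WT (SD, n = 2 each). It overlaps the 3′ end of Traf3ip2, which encodes an adaptor of interleukin-17 signalling, and stood 9.74 times above it per kilobase. Brip1os averaged 50.3 ± 3.29 CPM in KO and 51.7 ± 2.57 CPM in WT, and was level with Med13, a Mediator kinase-module subunit, at a ratio of 0.99. The libraries of the genotypes overlapped in both antisense RNAs.

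1600020E01Rik averaged 35.8 ± 0.416 CPM in KO and 32.8 ± 4.63 CPM in WT, and its start lay 74 bases from that of Pcbp1, an RNA-binding protein gene expressed at 256 CPM per kb beside its own 7.93. Gm17201 lies inside Ankrd52, which encodes a subunit of protein phosphatase 6, and had 75 CPM per kb beside 7.51 for Ankrd52. Exons of Ankrd52 cover 59.5% of its exon bases, so this is one of the members whose reads are least certain. Gm16536 lies inside Bace1, the gene of beta-secretase, with 26.8 ± 2.44 CPM in KO and 25.9 ± 1.32 CPM in WT. Bace1 averaged 35.7 ± 3.10 CPM in KO and 34.6 ± 4.49 CPM in WT, and the log2 ratio of antisense to sense was -0.42, -0.41, -0.49 and -0.33 in KO2, KO4, WT6 and WT8, so this pair kept nearly the same balance in every library. The other 3 of the 8, Dlx6os1, Gm11266 and A930024E05Rik, are described with their partners below.

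None of the 111 members passed the test between KO and WT, and neither did any of 123 sense partners tested. Over all genes tested 0.00637% passed (edgeR's quasi-likelihood test, adjusted p under 0.05). At an unadjusted p under 0.05 there were 5 members, where 4.70% of all genes were (2.44% higher and 2.26% lower in KO), and 4 sense partners. DESeq2 and limma-voom also called 0 members and 0 partners. The log2 fold change KO over WT of the members had a median of 0.03, against -0.01 for all genes tested, and ran from -0.69 to 1.04, with 105 of 111 under 0.5 in size. It was above 0 for 65 members and below 0 for 46. Both KO libraries stood above both WT libraries for 16 members (14.4%, where 20.1% of all genes did), and below them for 13 (11.7%, where 19.4% did). The 95% interval of a member's fold change reached a median of 0.60 to each side, against 0.34 for all genes.

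**Figure D2:**
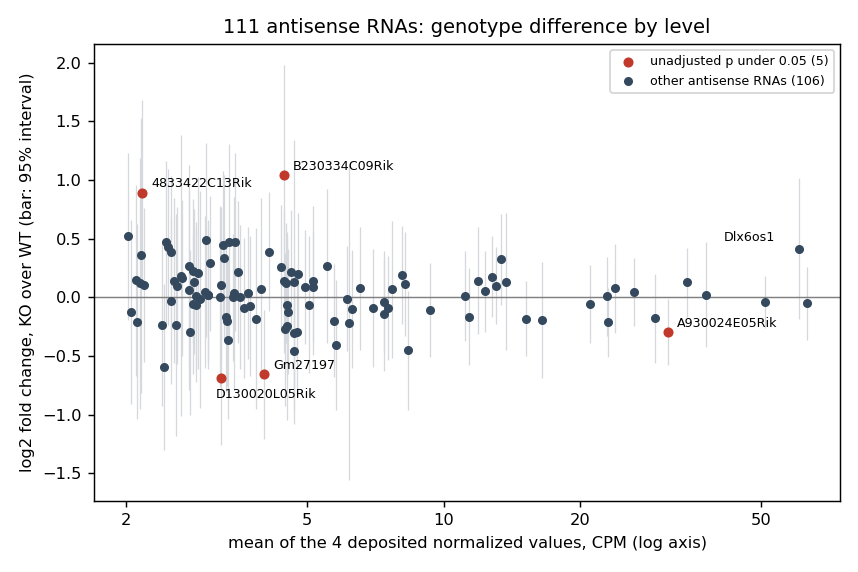
Log2 fold change KO over WT with its 95% interval (vertical) against the mean deposited CPM (horizontal, log axis) for each of the 111 antisense RNAs. The 5 members with an unadjusted p under 0.05 are red and named, and 105 of the 111 points lie within 0.5 of 0.

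Libraries of 1 genotype differed more, by the median, in the members than in coding genes of the same broad band of level. Levels were not matched within the band, and what lower read counts contribute was not tested. Between 2 and 20 CPM the median absolute log2 difference was 0.23 for antisense RNAs, 0.20 for long intergenic RNAs and 0.17 for coding genes between KO2 and KO4. It was 0.29, 0.25 and 0.23 between WT6 and WT8. In 69 of the 111 members (62.2%) the fold change had opposite signs in the 2 deposited pairs, KO2 over WT6 and KO4 over WT8, where 50.1% of all genes did. These 2 ratios share no library, and each sets embryos of 1 sex against each other. WT8 was the lowest library for 40 members (36.0%, where it was for 34.0% of all genes) and KO2 for 14 (12.6%, where it was for 19.0%).

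The 5 members nearest to passing were D130020L05Rik, Gm27197 and A930024E05Rik, lower in KO, and 4833422C13Rik and B230334C09Rik, higher in KO, each with an adjusted p of 0.743 by edgeR. In all 5 the libraries of the genotypes did not overlap, as in 39.4% of all genes tested. Choosing members by the smallest p favours this, so it adds nothing to the p-values. D130020L05Rik (chr12:101082451-101088927, plus strand) had 44 and 47 reads in KO2 and KO4, against 72 and 61 in WT6 and WT8. It averaged 2.48 ± 0.116 CPM in KO and 4.0 ± 0.258 CPM in WT (SD, n = 2 each), and its log2 fold change was -0.69 (95% interval -1.26 to -0.12). Its partner Ppp4r3a, a regulatory subunit gene of protein phosphatase 4 whose start lies 1251 bases from it, averaged 70.2 ± 4.92 CPM in KO and 69.8 ± 0.133 CPM in WT. The means of the sense gene differed by less than its spread in KO. Exons of Ppp4r3a cover 34.7% of the exon bases of D130020L05Rik, and reads there cannot be assigned to a strand.

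4833422C13Rik (chr13:91701665-91741872, minus strand) had 41 and 62 reads in KO2 and KO4, against 24 and 26 in WT6 and WT8, a log2 fold change of 0.89 (95% interval 0.11 to 1.68). It runs into the 3′ end of Ssbp2, a cofactor gene of LIM-domain transcription complexes, which averaged 95.3 ± 2.53 CPM in KO and 93.1 ± 2.94 CPM in WT. B230334C09Rik had 82 and 137 reads in KO2 and KO4, against 67 and 30 in WT6 and WT8, a log2 fold change of 1.04 (95% interval 0.10 to 1.98), and KO4 and WT8 are the libraries that stand farthest out. Its log2 fold change was 0.62 without KO4 and also without WT8, and 1.66 without WT6, while that of 4833422C13Rik was 0.56 without KO4. Its partner Lrrc40, a leucine-rich repeat protein gene, averaged 41.6 ± 1.94 CPM in KO and 38.2 ± 3.66 CPM in WT. Both antisense RNAs stood at under 0.1 of their partner per kilobase, at ratios of 0.0311 and 0.0597. Exons of the partner cover 29.8% of the exon bases of 4833422C13Rik and 14.6% of those of B230334C09Rik.

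A930024E05Rik (chr5:122989354-122998345, plus strand) is the most abundant of the 5. It had 483 and 544 reads in KO2 and KO4, against 623 and 521 in WT6 and WT8, and 28.0 ± 2.36 CPM in KO and 34.4 ± 2.54 CPM in WT. Its log2 fold change was -0.30 (95% interval -0.58 to -0.02). It stands head to head with Kdm2b, which encodes a histone demethylase that binds unmethylated CpG islands. The RefSeq starts of the pair lie 255 bases apart and their promoter windows of 300 bases share 246 bases. Kdm2b had 1352 and 1710 reads in KO2 and KO4, against 1720 and 925 in WT6 and WT8, so that WT8 was its lowest library and its genotypes overlapped. The antisense RNA and the sense gene did not have the same order of libraries.

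**Figure D3:**
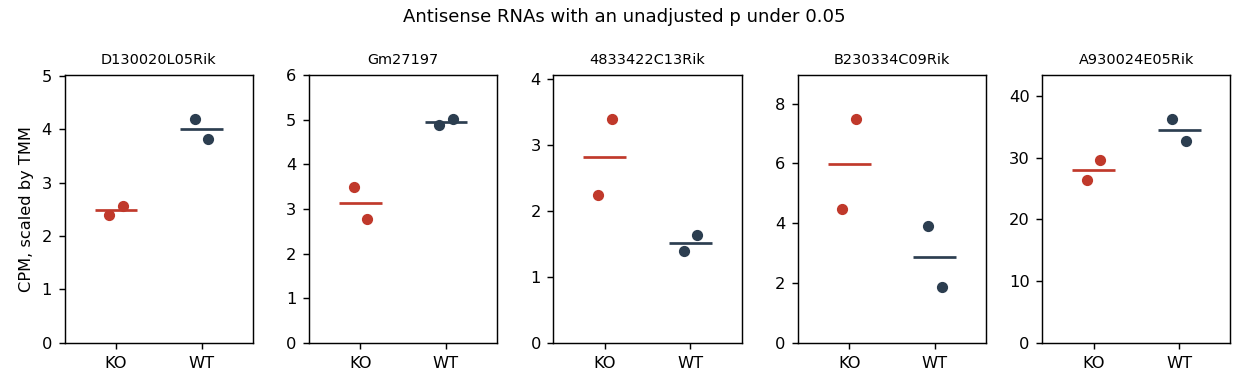
CPM scaled by TMM of the 5 antisense RNAs with the smallest p in each library, KO left and WT right, with 1 point per library and a bar at the mean of 2. The KO and WT points of each RNA do not overlap, which choosing by the smallest p favours, and none of the 5 passed after adjustment over all genes.

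The next members in order of p were Rab10os, Atcayos and Etohd2, higher in KO, and AA387200 and Dmrta2os, lower in KO. Rab10os, at the 3′ end of the vesicle-transport gene Rab10, had 247 and 298 reads in KO2 and KO4, against 218 and 177 in WT6 and WT8 (log2 fold change 0.32, 95% interval -0.07 to 0.71). Atcayos had 87 and 84 reads in KO2 and KO4, against 59 in each WT library (log2 fold change 0.39, 95% interval -0.12 to 0.90). Etohd2, which starts 313 bases from the iron-sulfur assembly gene Isca1, had 45 and 42 reads in KO2 and KO4, against 32 and 23 in WT6 and WT8. AA387200 had 78 and 67 reads in KO2 and KO4, against 99 and 82 in WT6 and WT8 (log2 fold change -0.46), and Dmrta2os had 153 and 107, against 174 and 148 (log2 fold change -0.45). The fold change of Dmrta2os was -0.22 without KO4 and -0.72 without KO2, and that of Rab10os was 0.18 without KO4. The libraries of the genotypes did not overlap in any of these 5 on the CPM scale, which choosing by p favours here too. Each had an adjusted p of 0.743 by edgeR.

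A transcription factor gene from a list of 136 was the sense partner of 9 members, and none of these antisense RNAs or partners passed (adjusted p between 0.743 and 0.983, edgeR). Dlx6os1 spans Dlx6 whole, and both belong to the ventral forebrain, where Dlx factors direct the formation of GABAergic neurons. Dlx6os1 had 1346 and 1202 reads in KO2 and KO4, against 630 and 1081 in WT6 and WT8. Dlx6 had 377 and 352 reads in KO2 and KO4, against 180 and 350 in WT6 and WT8. In both, WT6 was the low library and the other libraries were close together. Dlx6os1 averaged 69.5 ± 5.54 CPM in KO and 52.2 ± 22.0 CPM in WT, with a log2 fold change of 0.42 (95% interval -0.19 to 1.02), and that of Dlx6 was 0.30 (-0.44 to 1.04). The log2 ratio of Dlx6os1 to Dlx6 was 1.83 and 1.77 in KO2 and KO4, against 1.80 and 1.62 in WT6 and WT8, so the antisense RNA and the sense gene varied together between libraries.

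In the fit without WT8, which holds WT6 as the lone WT library, 0.636% of genes passed, and of the members Dlx6os1 did, which rose by 0.93 on the log2 scale (adjusted p = 4.04e-06, edgeR), while of the partners Dlx6 rose by 0.93 (adjusted p = 0.00402) and Dlx1 by 0.55 (adjusted p = 0.00158). Without WT6 the log2 fold changes were 0.04 for Dlx6os1, -0.14 for Dlx6 and -0.10 for Dlx1. The sum of the ventral forebrain list was lowest in WT6 as well, and each of its 12 genes had its lowest value there. What that library's regional makeup contributes was not tested.

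Dlx1as spans Dlx1 and had 79 and 96 reads in KO2 and KO4, against 66 in each WT library, a log2 fold change of 0.26 (95% interval -0.27 to 0.79), which was 0.11 without KO4 and 0.40 without KO2. Dlx1, which acts with Dlx2 in the same neurons, had 7468 and 6985 reads in KO2 and KO4, against 4637 and 6764 in WT6 and WT8. The dip in WT6 that Dlx1 showed was smaller in Dlx1as, and the log2 ratio of antisense to sense was -6.53 and -6.15 in KO2 and KO4, against -6.09 and -6.64 in WT6 and WT8. Exons of Dlx1 cover 20.6% of the Dlx1as exons, and the antisense RNA stood at 0.0392 of the level of Dlx1 per kilobase. Gm27199, head to head with the LIM-homeobox gene Lhx5 and starting 68 bases from it, had 47 and 42 reads in KO2 and KO4, against 16 and 46 in WT6 and WT8. Lhx5 had 280 and 237 reads in KO2 and KO4, against 213 and 310 in WT6 and WT8, so that WT6 was the lowest and WT8 the highest library for antisense and sense on the CPM scale. The log2 fold change was 0.36 for Gm27199 and -0.17 for Lhx5.

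A further 4 pairs involve factors of the dorsal telencephalon. Gm27197 (chr2:38347357-38348316, minus strand) lies within an intron of Lhx2, a selector gene of cortical identity. It had 64 and 51 reads in KO2 and KO4, against 84 and 80 in WT6 and WT8 (log2 fold change -0.66, 95% interval -1.20 to -0.11, unadjusted p = 0.0259 and adjusted p = 0.743 by edgeR). Lhx2 had 6565 and 5901 reads in KO2 and KO4, against 7507 and 5883 in WT6 and WT8, with a log2 fold change of -0.24, which was -0.12 without WT6. Both KO libraries were below both WT libraries in the antisense RNA and in the sense gene. Over the 10 dorsal telencephalon markers, 1 had a fold change above 0 and the median was -0.17.

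Emx2os stands head to head with Emx2, a homeobox gene of the caudal and medial cortex, with starts 263 bases apart. Emx2os had 149 and 120 reads in KO2 and KO4, against 137 and 122 in WT6 and WT8, with overlapping genotypes, while Emx2 averaged 40.9 ± 0.878 CPM in KO and 46.9 ± 1.84 CPM in WT, without overlap. Gm33460 overlaps the 3′ end of Eomes, which marks intermediate progenitors of the cortex, and had 54 and 37 reads in KO2 and KO4, against 45 and 39 in WT6 and WT8. Eomes differed most between the WT libraries, with 2543 and 2769 reads in KO2 and KO4, against 3206 and 1858 in WT6 and WT8. Gm11266 lies inside Nfib, a factor of cortical progenitors and glia, and shares no exon base with it. Reads of unspliced Nfib RNA over the exons of Gm11266 cannot be told apart from its own without the strand. It had 708 and 688 reads in KO2 and KO4, against 778 and 474 in WT6 and WT8, and Nfib had 14074 and 13645, against 15671 and 10430. WT6 was the highest and WT8 the lowest library for both, and their log2 ratio stayed at -4.31, -4.31, -4.33 and -4.45 in KO2, KO4, WT6 and WT8.

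A830082K12Rik, head to head with Nr2f1, a nuclear receptor gene that patterns the cortex into areas, had 404 and 494 reads in KO2 and KO4, against 440 and 333 in WT6 and WT8. Nr2f1 had 4900 and 5181 reads in KO2 and KO4, against 4837 and 4005 in WT6 and WT8, and the log2 ratio lay between -3.59 and -3.39 in the 4 libraries. 2700069I18Rik, head to head with the zinc-finger homeobox gene Zfhx4, had 35 and 46 reads in KO2 and KO4, against 27 and 39 in WT6 and WT8. WT6 was the lowest library for it and for Zfhx4, which had 452 and 471 reads in KO2 and KO4, against 323 and 419 in WT6 and WT8.

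**Figure D4:**
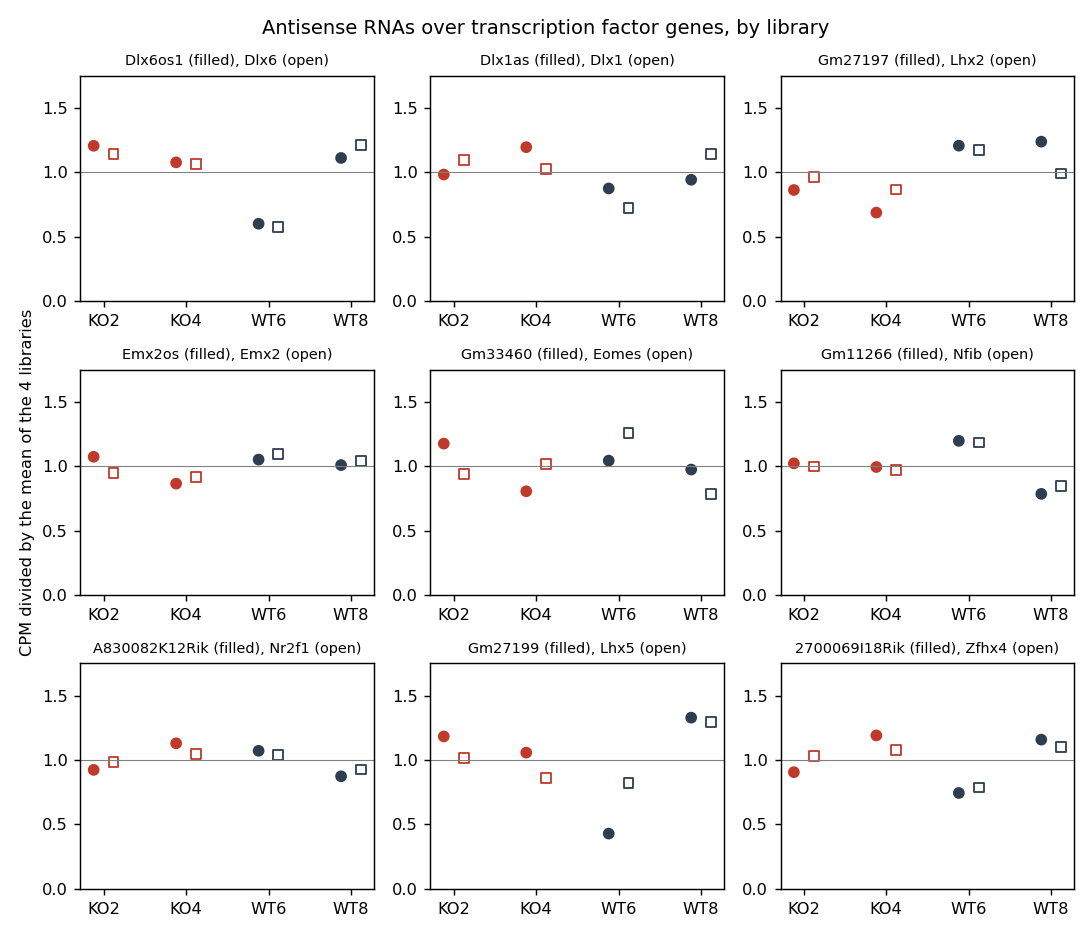
CPM scaled by TMM in each library, divided by the mean of the 4 libraries, for the 9 antisense RNAs (filled circles) and their transcription factor partners (open squares), with KO2 and KO4 in red on the left and WT6 and WT8 in dark blue on the right. Dlx6os1 with Dlx6 and Gm11266 with Nfib follow each other across libraries, and Gm33460 varies less than Eomes between WT6 and WT8.

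Across the 97 pairs with both genes tested, the fold change of the antisense RNA bore little relation to that of its sense gene. Both were above 0 in 32 pairs and both below 0 in 20, while the antisense RNA alone was above 0 in 26 and the sense gene alone in 19. Spearman's rho was 0.10 and Pearson's r 0.11 across these pairs, which all rest on the same 4 libraries and are given with no p. By shape, Spearman's rho was 0.16 over 27 pairs with the antisense RNA inside the gene, 0.07 over 38 head-to-head pairs and 0.04 over 28 tail-to-tail pairs. The 4 sense partners with an unadjusted p under 0.05 were Rb1cc1 (log2 fold change 0.28), Ints2 (0.45) and Fam172a (0.21), higher in KO, and Podxl2 (-0.21), lower in KO. The fold change of Ints2 was 0.23 without WT8 and 0.73 without WT6. Rb1cc1 encodes an autophagy initiation factor and Ints2 a subunit of the Integrator complex. They overlap the members 4732440D04Rik, Brip1os, CT025642.1 and Gm15612 in that order, none of which was among the 5.

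**Figure D5:**
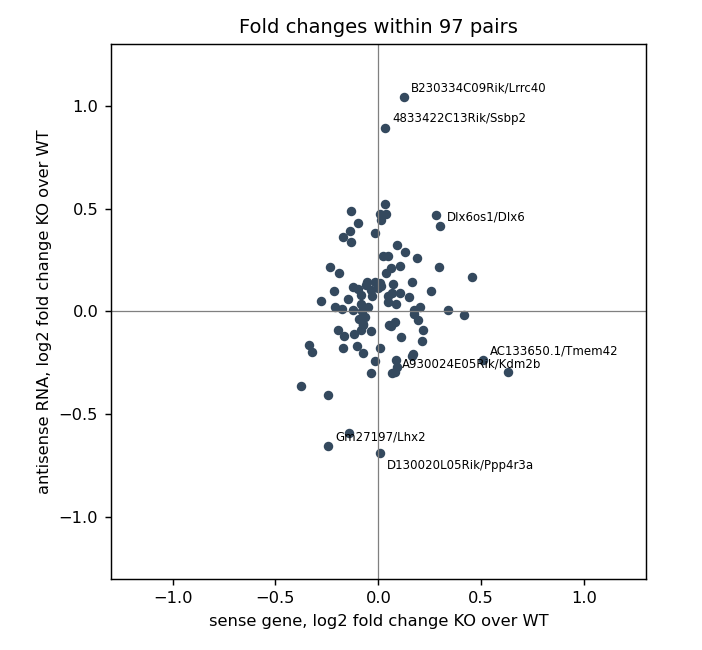
Log2 fold change KO over WT of the antisense RNA (vertical) against that of its sense gene (horizontal), 1 point for each of 97 pairs, with 7 pairs named. The points form no line: rho is 0.10, and the antisense changes spread more widely (-0.69 to 1.04) than most of the sense changes.

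The log2 ratio of antisense to sense within a library, KO minus WT, had a median of 0.054 over the 97 pairs, was above 0 in 55 and below 0 in 42, and was under 0.5 in size in 87. The ratios of the KO libraries did not overlap those of the WT libraries in 31 pairs (32.0%, where the levels of 39.4% of all genes did not overlap between the genotypes). With 2 libraries against 2 the smallest two-sided p that an exact permutation test can give is 0.33, so no single ratio can pass. Among the 91 pairs with at least 20 reads of both genes in every library, the largest higher ratios were those of B230334C09Rik over Lrrc40 (0.93), 4833422C13Rik over Ssbp2 (0.79), Gm12264 over Mprip (0.65), Atcayos over Atcay (0.51) and 1110002L01Rik over Kif3c (0.50). Mprip encodes a myosin phosphatase-binding protein, Atcay the neuronal protein caytaxin and Kif3c a kinesin motor. For Atcayos the ratio was -5.67 and -5.69 in the KO libraries 2 and 4, against -6.16 and -6.23 in the WT libraries 6 and 8, so that the libraries of a genotype stood close together. For Gm12264 it was -5.71 and -6.20 in the KO libraries 2 and 4, against -6.32 and -6.88 in the WT libraries 6 and 8. Without WT8 the difference in ratio was 0.37 for Gm12264 and 0.53 for B230334C09Rik.

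The largest lower ratios were those of AC133650.1 over Tmem42 (-0.80), D130020L05Rik over Ppp4r3a (-0.67), 9130221H12Rik over the kinase gene Gsk3a (-0.45), A930024E05Rik over Kdm2b (-0.42) and Gm27197 over Lhx2 (-0.41). In the first of these pairs the log2 fold change KO over WT was -0.23 for AC133650.1 and 0.51 for Tmem42, so the sense gene moved more. The ratio of D130020L05Rik was -4.73 and -4.78 in the KO libraries 2 and 4, against -4.02 and -4.15 in the WT libraries 6 and 8. That of AC133650.1 was -1.45 and -0.28 in the KO libraries 2 and 4, against -0.03 and -0.10 in the WT libraries 6 and 8, and its difference was -0.21 without KO2. Without WT8 the difference was -0.10 for A930024E05Rik, and without KO2 it was -0.15 for 9130221H12Rik, so that these also rest mostly on 1 library. That of Gm27197 was -0.27 without WT8. 9130221H12Rik had 29 and 42 reads in KO2 and KO4, against 49 and 48 in WT6 and WT8. Exons of the sense partner cover 52.0% of its exon bases, 54.0% of those of Gm12264 and 63.4% of those of 1110002L01Rik.

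The authors' deposited table marks 4 of the 111 members as changed in KO2 over WT6 (3.60%, where 1.86% of its genes are marked) and 8 in KO4 over WT8 (7.21%, where 5.05% are). Their marks rest on 1 library against 1. In KO2 over WT6 the authors' deposited table has Dlx6os1 (log2 fold change 1.01), D030055H07Rik (1.38) and Gm27199 (1.47) higher and AC133650.1 (-1.05) lower. In KO4 over WT8 the authors' deposited table has B230334C09Rik (2.06), AC156802.1 (1.58), Gm26801 (1.34), 4732440D04Rik (1.27), CT025660.2 (1.15), 4833422C13Rik (1.12) and Gm27209 (1.06) higher and D030055H07Rik (-1.24) lower. The single member marked in both tables, D030055H07Rik, thus had opposite directions in them.

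The reads behind some of those marks differed as much between the WT libraries as between the genotypes. D030055H07Rik spans Glyctk, a glycerate kinase gene, and had 132 and 79 reads in KO2 and KO4, against 48 and 170 in WT6 and WT8, so that both KO libraries lay between the WT libraries. AC156802.1 lies inside Nrn1, which encodes the neurite-growth protein neuritin, and had 74 and 105 reads in KO2 and KO4, against 118 and 32 in WT6 and WT8. Gm26801, head to head with Zbtb18, a repressor gene needed for cortical neuron formation, had 53 and 50 reads in KO2 and KO4, against 65 and 18 in WT6 and WT8. Nrn1 and Zbtb18 were lowest in WT8 as well: Nrn1 had 798 and 811 reads in KO2 and KO4, against 913 and 484 in WT6 and WT8, and Zbtb18 had 7137 and 7937, against 8391 and 4992. WT8 was also the lowest library for 7 of the 10 dorsal telencephalon markers, whose part in these values was not tested.

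No opposite-strand coding gene overlapped 13 members. Of these, 10 lay within 1000 bases of one: 2810001G20Rik was 16 bases from Cox10, BC051226 97 from Daxx, A230107N01Rik 121 from Tmem161b, Gm4285 129 from Tpt1, Gm13375 173 from Arhgap21, Dmrta2os 240 from Dmrta2, B230369F24Rik 581 from Cox20, Gm13111 703 from Prdm16, Fbxl12os 847 from Fbxl12 and 9630028B13Rik 997 from Eprs. Dmrta2 is a cortical patterning factor and Daxx a chaperone of histone H3.3. The most abundant, 2810001G20Rik, averaged 21.4 ± 0.728 CPM in KO and 24.8 ± 1.73 CPM in WT, and BC051226 averaged 20.6 ± 1.24 CPM in KO and 21.5 ± 2.54 CPM in WT. None of the 13 passed and none had an unadjusted p under 0.05 by edgeR, with 6 fold changes above 0 and 7 below.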

How the data were processed

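RNA was extracted from brains of 2 KO and 2 WT embryos with Trizol and sequenced, per the labels' protocols. Tools named in the submitters' processing notes are TopHat2 2.0.12, Bowtie2 2.2.3 and HTSeq 0.6.0, with mm9 as the build, while the positions in the tables were identical to GENCODE M21 (GRCm38) for 91.2% of genes and for 108 of the 111 members, so positions are given on GRCm38. The authors deposited 2 tables, each with whole-number read counts and normalized values of 1 KO and 1 WT library. The deposited normalized values are CPM, found from the values, with a count of 0 given the CPM of 0.5 read. The authors' tables also hold p-values and adjusted p-values, and the KO over WT ratio on a linear and a log2 scale, per the file headers.

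The members and gene lists were chosen with earlier results of these data known. Counts of all genes in both tables were tested in R 4.3.3 with edgeR 4.0.16 (TMM, filterByExpr, quasi-likelihood F-test with genotype as the only term, Benjamini-Hochberg adjustment over 15708 genes, threshold 0.05), and the procedure was tested on simulated data. CPM values in the text are scaled by the TMM factors. Overlaps need at least 1 base on opposite strands. Levels per kilobase use merged M21 exons, and log2 ratios use log2 CPM of counts, with a prior count of 2. Alternatives were DESeq2 1.42.0 and its size factors, limma 3.58.1 (voom, and the deposited CPM with a pseudocount of 1), no filter, the deposited table as a block, and the fit without each library. Named are the 8 most abundant members, the 5 with the smallest p in each direction and any that passed, the 3 on each side of the level limit, those over a listed transcription factor gene, the 5 largest changes of ratio in each direction among pairs with at least 20 reads in every library, those with no partner, and their partners. Other members, such as those in the authors' marks, the extremes of the level ratio and Brip1os with Ints2, were named after their values were seen.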

Additional observations from a re-analysis of the deposited data

How the results depend on the processing

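None of the 111 members passed under DESeq2's size factors, no filter, DESeq2 or limma-voom. Nor did any under limma on the deposited CPM or with the deposited table as a block. No sense partner passed in these 6 settings, and none of the 41 members at a level of at least 5 passed. Leaving out each library gave 0 to 1 members called and 0 to 2 partners. The calls were Dlx6os1, Dlx6 and Dlx1 without WT8, where the spread comes from the KO libraries and WT6 is assumed to vary like them. Over all genes, 1 was called, 4 by DESeq2, 2 by limma on the deposited CPM, 2 with the table block, and 0 (without WT6) to 104 (without WT8) when a library was left out. The cause was not tested. Between 21 (without WT6) and 35 (without WT8) of the 111 signs turned when a library was left out, and 1 to 4 in the 6 other settings of the fit. Over these 4 fits the log2 fold change ran from -0.87 to 0.21 for AC133650.1, -0.14 to 0.93 for Dlx6, -0.10 to 0.55 for Dlx1, -0.25 to 1.38 for Gm27199 and -0.46 to 0.19 for Lhx5. The median change of the antisense to sense log2 ratio was -0.030 to 0.086 over these fits, and -0.049 with KO4 and WT8 alone. The median log2 level of antisense over sense was -2.16 per kilobase of exons and -0.77 per kilobase of gene span. Members with a sense partner numbered 98. By construction there were fewer under stricter rules: 53 when at least 50% of the shorter span had to overlap, and 77 when exons had to. Replicate numbers pair no samples, since KO libraries are numbered 2 and 4 and WT libraries 6 and 8, so the deposited table, which also separates the sexes, was the one block used. Members with few reads had wide intervals, and 2 libraries per genotype limit every comparison.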
